A study of Mus musculus with 22 samples.

Results

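The angiopoietin and Tie pathway was followed in mouse lung through 5 genes of the deposited table, found by their symbols: Angpt1 and Angpt2 (ligands), Tek and Tie1 (receptors) and Ptprb (a receptor phosphatase). All 5 were among the 54532 genes listed and among the 16638 that passed a filter on low counts. Whole lungs were taken from young male C57BL6/j mice after 8 days. Mice were kept in hypoxia and given the senolytic ABT-263 (5 libraries), kept in hypoxia and given its vehicle (6), kept in normoxia and given ABT-263 (6), or kept in normoxia and given vehicle (5, the study's control condition). ABT-263, also called navitoclax, blocks BCL-2 and related survival proteins and was dosed at 50 mg/kg per day. Each library was treated as a separate mouse, as the labels describe mice but give no animal numbers, and the p-values measure the spread between these libraries.

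In the vascular wall, angiopoietin-1 is made mainly by pericytes, smooth muscle and other mesenchymal cells and activates the endothelial receptor Tie2, the product of Tek. Angiopoietin-2 is made by endothelial cells, stored in Weibel-Palade bodies and, depending on context, blocks or weakly activates Tie2. Tie1 binds no angiopoietin on its own but pairs with Tie2 and modifies its signal, and VE-PTP, the product of Ptprb, removes phosphate from Tie2. Tie2 signals through PI3 kinase and AKT, which keep the transcription factor FOXO1 out of the nucleus. FOXO1 in turn drives Angpt2, so the pathway contains a feedback loop. In lung the pathway is known for keeping capillaries tight and quiescent.

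Library totals were 11509007 to 15744193 expected counts. For 3 libraries, replicate 1 of the hypoxia ABT-263, hypoxia vehicle and normoxia ABT-263 groups, the title and the treatment tag disagreed, and groups follow the titles. Lung identity was carried by the alveolar epithelial gene Sftpc, with group means of 25299 to 27636 CPM (counts per unit of TMM-scaled library size). Endothelial identity was carried by Pecam1, with means of 542.8 ± 58.5 CPM in hypoxia ABT-263, 465.8 ± 62.1 in hypoxia vehicle, 555 ± 77.3 in normoxia ABT-263 and 556 ± 82.6 in normoxia vehicle (SD).

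Tek and Tie1 lie on the same mouse chromosome and both encode Tie receptors, so the promoters of both are shown, in the sequence of RefSeq on GRCm38.p6. Each window runs from 250 bases before to 50 bases after the gene's start as RefSeq places it and is written 5′ to 3′ on the gene's strand. For Tie1, GENCODE vM21, the source of the gene positions given with the levels, places the start elsewhere within the printed window, at 118490061. The Tek window is chr4:94739039-94739338 on the plus strand and the Tie1 window is chr4:118489800-118490099 on the minus strand. Capitals mark every match, on either strand, to the ETS factor core GGAA (TTCC on the other strand) or the GATA motif AGATAA.
Tek: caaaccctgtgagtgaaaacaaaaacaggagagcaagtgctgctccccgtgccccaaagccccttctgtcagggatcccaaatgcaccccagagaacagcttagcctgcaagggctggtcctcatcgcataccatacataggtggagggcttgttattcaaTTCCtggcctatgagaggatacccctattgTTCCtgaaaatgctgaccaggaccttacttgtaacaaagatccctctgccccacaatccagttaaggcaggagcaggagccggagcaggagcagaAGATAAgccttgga
Tie1: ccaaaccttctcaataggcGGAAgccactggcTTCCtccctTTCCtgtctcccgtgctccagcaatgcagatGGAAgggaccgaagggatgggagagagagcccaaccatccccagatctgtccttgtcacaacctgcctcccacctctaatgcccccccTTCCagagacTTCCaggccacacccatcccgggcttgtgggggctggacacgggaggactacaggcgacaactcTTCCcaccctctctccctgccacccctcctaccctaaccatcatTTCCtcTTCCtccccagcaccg

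ETS and GATA factors are known regulators of endothelial genes. The Tie1 window holds 9 matches to the ETS core and none to AGATAA. By the GENCODE start of Tie1, only the ETS matches at bases 20 and 33 lie upstream, and the others lie within the gene. The Tek window holds 2 ETS matches and 1 AGATAA, which starts at base 287, after the gene's start. The 4 letters of the ETS core occur in 96.0% and AGATAA in 11.2% of the 32851 promoters of the same length in the table. How many matches a promoter holds was not compared. Neither window contains ACGTG, the core of the hypoxia response element, or the forkhead motif GTAAACA on either strand, against 19.6% and 3.65% of all promoters. These are matches of letters in short windows and not shown binding sites. For the other 3 genes the table has no entry.

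Compared per kilobase of merged exon, Tek had the highest level of the 5 genes in every group and Angpt2 the lowest. Tek (ENSMUSG00000006386, GRCm38 chromosome 4, 94739289 to 94874976, plus strand) averaged 41.8 ± 6.45 CPM per kilobase in hypoxia ABT-263, 35.3 ± 5.25 in hypoxia vehicle, 53.9 ± 9.60 in normoxia ABT-263 and 59.1 ± 5.82 in normoxia vehicle (SD). Tie1 (ENSMUSG00000033191, chromosome 4, 118471191 to 118490061, minus strand) followed with 34.8 ± 4.43, 31.3 ± 2.96, 35.9 ± 5.11 and 38.7 ± 4.76 CPM per kilobase in the same groups. Ptprb (ENSMUSG00000020154, chromosome 10, 116275523 to 116389535, plus strand) had 29.6 ± 5.62, 28.5 ± 3.75, 35.6 ± 7.33 and 35.9 ± 4.40. In each group the means of Tie1 and Ptprb lay within the SD of Ptprb of each other, and in hypoxia ABT-263 the difference exceeded the SD of Tie1. The order of these neighbours is therefore not clear of the spread between libraries. Within libraries Tie1 was above Ptprb in every hypoxia ABT-263 library, but not in every library of any other group. In hypoxia vehicle the means of Tek and Tie1 also lay within the SD of Tek. Angpt1 (ENSMUSG00000022309, chromosome 15, 42424723 to 42676977, minus strand) had 19.3 ± 3.21, 18.2 ± 1.49, 15.1 ± 1.77 and 14.4 ± 1.33. Angpt2 (ENSMUSG00000031465, chromosome 8, 18690263 to 18741562, minus strand) had 8.56 ± 0.892, 8.07 ± 0.606, 8.28 ± 1.06 and 9.99 ± 0.722. Both receptors and the phosphatase were therefore more abundant per length than either ligand in all 4 groups. Counts behind the values ran from 340 per library for the least abundant member, Angpt2, to 9520 for Ptprb. Across the 22 libraries the highest CPM was 2.54 times the lowest for Tek, 2.19 for Ptprb, 1.97 for Angpt1, 1.57 for Tie1 and 1.56 for Angpt2.

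**Figure D1:**
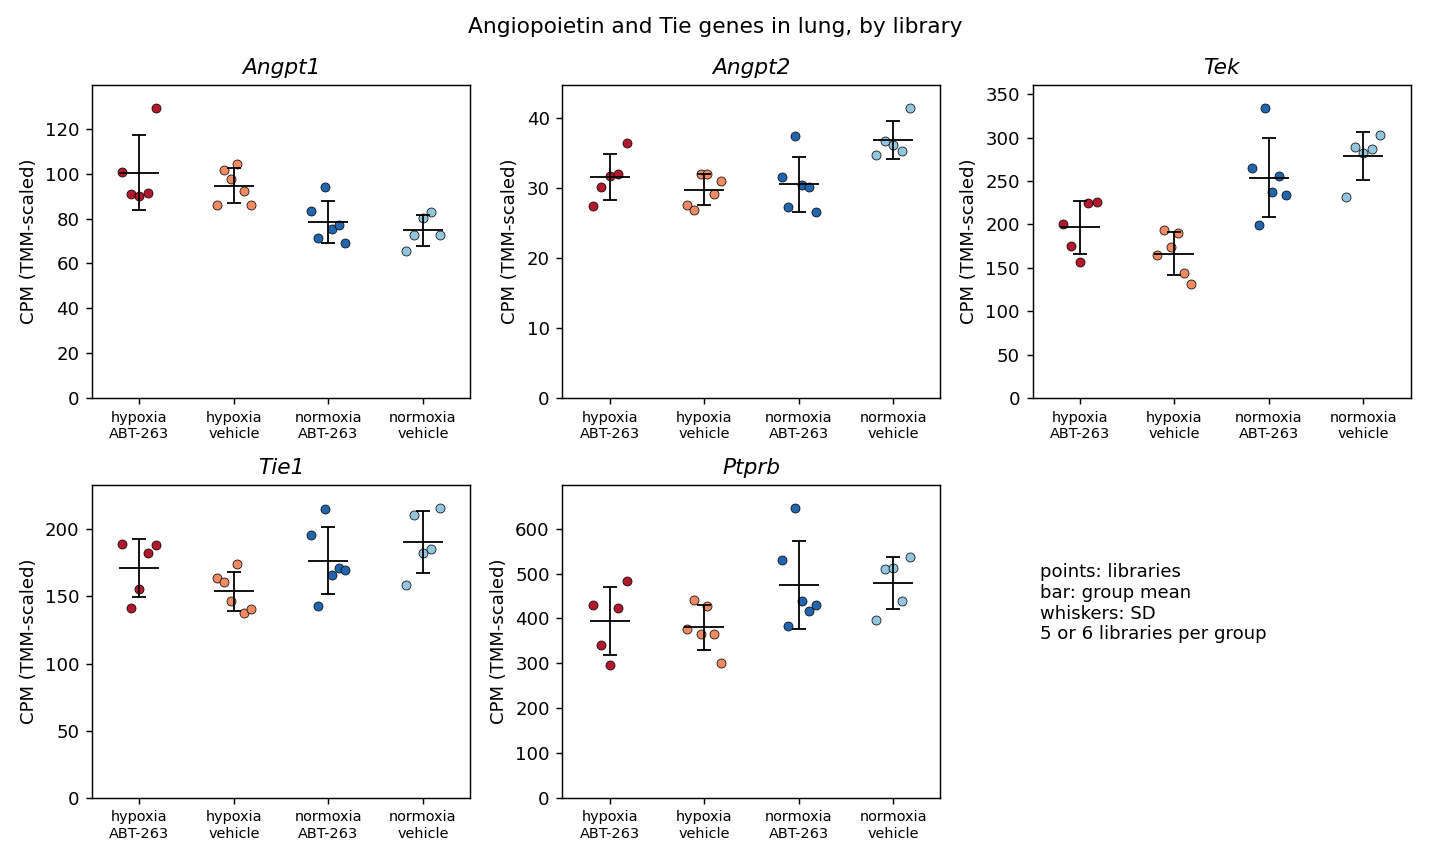
Each panel plots one gene's TMM-scaled CPM on the vertical axis for the 4 groups on the horizontal axis, with a point per library, a bar at the group mean and whiskers of 1 SD. Angpt1 libraries of hypoxia vehicle lie above all normoxia vehicle libraries, whereas those of Angpt2 and Tek lie below them.

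The first question was what 8 days of hypoxia changed in vehicle-treated mice. Hypoxia raised the agonist ligand Angpt1 and lowered the second ligand Angpt2 and both receptors, with Tek showing the largest change of the 5. By edgeR's quasi-likelihood test 1 of the 5 genes was higher and 3 were lower at an adjusted p under 0.05. Of all genes tested 26.3% passed in this comparison, 13.5% higher and 12.8% lower. Because whole lung was sequenced, fewer cells of a type and less RNA per cell cannot be told apart for any of these changes.

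Angpt1 ran from 86.2 to 104 CPM (median 94.9) in the 6 hypoxia vehicle libraries, against 65.7, 72.5, 80.4, 82.9 and 72.5 CPM in the 5 normoxia vehicle libraries. The groups did not overlap, and the lowest hypoxia library was above the highest normoxia library. The log2 fold change was 0.34 ± 0.094 (SE), a fold of 1.27, with an edgeR adjusted p of 0.00958. Under ABT-263, Angpt1 had 101, 91.1, 89.9, 91.2 and 129 CPM in hypoxia and ran from 69.1 to 94.2 CPM (median 76.4) in normoxia. Here 2 of 5 hypoxia libraries were above all 6 normoxia libraries and the ranges overlapped. The change was of a similar size, 0.36 ± 0.094 (edgeR adjusted p = 0.00415). Without hypoxia ABT-263 replicate 5, the library at 129 CPM, it was 0.26 (edgeR adjusted p = 0.0195).

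Many markers of pericytes, one source of Angpt1, were also higher in hypoxia. Of 14 pericyte genes 9 were higher and 0 lower in hypoxia vehicle than in normoxia vehicle, with a median log2 fold change of 0.34 beside −0.0038 for all genes tested. Their summed level was 1099 to 1231 CPM in hypoxia vehicle and 742 to 1040 CPM in normoxia vehicle, and 1209 to 1466 CPM in hypoxia ABT-263 and 725 to 1002 CPM in normoxia ABT-263. The pericyte genes Higd1b (1.62 ± 0.12), Rgs5 (1.53 ± 0.16) and Cspg4 (1.14 ± 0.12) rose more than Angpt1. The receptor gene Pdgfrb, also used as a pericyte marker but not restricted to pericytes, had 0.061 ± 0.11 (edgeR adjusted p = 0.718). In vehicle mice, of 13 fibroblast genes 4 were higher and 0 lower, and of 13 smooth muscle genes 6 were higher and 0 lower. Of 15 platelet and megakaryocyte genes, a further source of angiopoietin-1, 1 was higher and 7 were lower. Among all genes 13.5% were higher and 12.8% lower in vehicle mice. In ABT-263 mice the numbers higher and lower in hypoxia were 11 and 0 for pericyte genes and 5 and 0 for fibroblast genes. They were 2 and 1 for smooth muscle genes and 1 and 12 for platelet and megakaryocyte genes, beside 17.9% and 21.3% of all genes. The part of these shifts in the rise of Angpt1 was not tested.

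Angpt2 ran from 26.9 to 32.1 CPM (median 30.0) in hypoxia vehicle libraries, against 34.7, 36.7, 36.1, 35.4 and 41.4 CPM in normoxia vehicle libraries. Every hypoxia library was below every normoxia library. The log2 fold change was −0.31 ± 0.085, a fold of 0.807 (edgeR adjusted p = 0.00872). Under ABT-263 the levels were 27.5, 30.2, 31.7, 32.0 and 36.5 CPM in hypoxia and 26.6 to 37.5 CPM (median 30.3) in normoxia. These ranges lay over each other, and the change of 0.046 ± 0.085 did not pass (edgeR adjusted p = 0.704).

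Tek ran from 132 to 194 CPM (median 169.5) in hypoxia vehicle libraries, against 231, 289, 283, 287 and 303 CPM in normoxia vehicle libraries. The ranges were apart, with the lowest normoxia library, replicate 1, well below the other 4 of its group. The log2 fold change was −0.74 ± 0.12, a fold of 0.597 (edgeR adjusted p = 6.74e-05). Under ABT-263 Tek had 201, 176, 157, 224 and 226 CPM in hypoxia and ran from 199 to 334 CPM (median 246) in normoxia. Tek was lower in hypoxia there too, with a log2 fold change of −0.37 ± 0.12 (edgeR adjusted p = 0.0178), but 3 of 5 hypoxia libraries fell within the normoxia range. That call was lost without normoxia ABT-263 replicate 3 (log2 fold change −0.26, edgeR adjusted p = 0.0705), and also without hypoxia ABT-263 replicate 2 or 3 and without the 3 libraries of conflicting labels (−0.35, edgeR adjusted p = 0.0655).

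Tie1 ran from 137 to 174 CPM (median 154) in hypoxia vehicle libraries, against 158, 211, 182, 185 and 216 CPM in normoxia vehicle libraries. The groups overlapped, with 3 of 6 hypoxia libraries below all normoxia libraries. The log2 fold change was −0.31 ± 0.10 (edgeR adjusted p = 0.0256). The call was lost when normoxia vehicle replicate 2 or 5, or hypoxia vehicle replicate 3, 5 or 6, was left out, with log2 fold changes no smaller in size than −0.26 and edgeR adjusted p up to 0.082. Under ABT-263 Tie1 had 189, 141, 155, 183 and 188 CPM in hypoxia and 143 to 215 CPM (median 170.4) in normoxia, a change of −0.045 ± 0.10 that did not pass (edgeR adjusted p = 0.756).

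Ptprb ran from 302 to 440.3 CPM (median 372) in hypoxia vehicle libraries, against 396, 509.7, 511, 439.6 and 536.4 CPM in normoxia vehicle libraries, so that 4 of 6 hypoxia libraries were below all normoxia libraries. Its log2 fold change of −0.33 ± 0.13 was as large as that of Tie1 but missed the threshold (edgeR adjusted p = 0.0642). It passed with DESeq2 (−0.33, adjusted p = 0.047), in a fit of the compared groups only (edgeR adjusted p = 0.0231), and without any of 4 single libraries. These were normoxia vehicle replicate 1, normoxia ABT-263 replicate 3, hypoxia vehicle replicate 2 and hypoxia ABT-263 replicate 3. Under ABT-263 Ptprb had 429, 341, 295, 424 and 482 CPM in hypoxia and 383 to 646 CPM (median 434) in normoxia, with a change of −0.27 ± 0.13 (edgeR adjusted p = 0.117). In the ABT-263 mice 2 of the 5 genes passed in all, Angpt1 higher and Tek lower, where 39.2% of all genes passed, 17.9% higher and 21.3% lower.

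**Figure D2:**
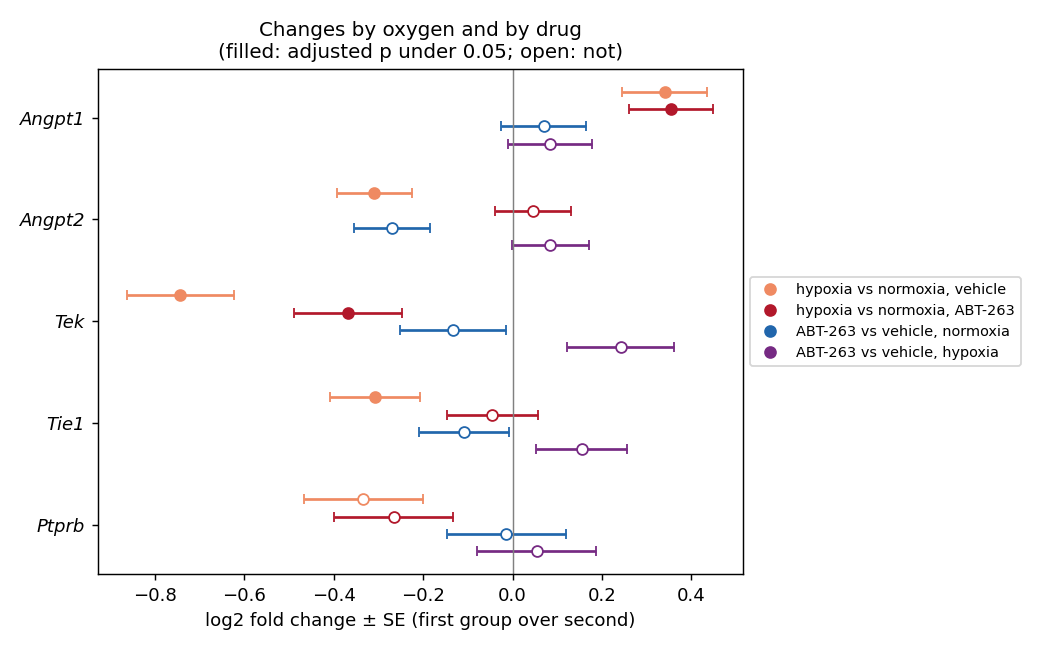
Log2 fold changes with SE on the horizontal axis are drawn for the 5 genes, one row each, in 4 comparisons, with filled points where edgeR's adjusted p was under 0.05 and open points where it was not. Filled points are those of Angpt1 and Tek for hypoxia in both treatments, and of Angpt2 and Tie1 for hypoxia in vehicle mice.

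ABT-263 itself moved none of the 5 genes past the threshold in either oxygen condition, in settings where it moved few genes at all. In normoxia 0 of 5 passed edgeR's test, beside 0.535% of all genes (0.108% higher and 0.427% lower), and DESeq2 and limma-voom also called 0. At an unadjusted p under 0.05 there was 1, Angpt2, with a log2 fold change of −0.27 ± 0.084 (edgeR adjusted p = 0.141). For Angpt2, 5 of 6 normoxia ABT-263 libraries lay below all 5 normoxia vehicle libraries, and the exception was replicate 3 at 37.5 CPM. Without that replicate the change was −0.35 (edgeR adjusted p = 0.0497), past the threshold. The other 4 genes changed by −0.13 ± 0.12 (Tek), −0.11 ± 0.10 (Tie1), −0.013 ± 0.13 (Ptprb) and 0.070 ± 0.094 (Angpt1). In hypoxia 0 of 5 passed by edgeR, DESeq2 or limma-voom, beside 0.301% of all genes by edgeR (0.114% higher and 0.186% lower). There 0 of the 5 had an unadjusted p under 0.05, beside 2385 of the 16638 genes. The changes there were all above 0, with 0.24 ± 0.12 for Tek, 0.15 ± 0.10 for Tie1, 0.085 ± 0.086 for Angpt2, 0.085 ± 0.094 for Angpt1 and 0.054 ± 0.13 for Ptprb. Averaged over both oxygen conditions, 0 of 5 passed by the same tools, where 2.54% of all genes passed by edgeR (1.23% higher and 1.31% lower). For this average 0 of the 5 had an unadjusted p under 0.05, beside 2883 of the 16638 genes.

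Whether the drug's effect differed between oxygen conditions was tested as an interaction. For Angpt2 the drug's log2 fold change was 0.35 ± 0.12 higher in hypoxia than in normoxia (unadjusted p = 0.00669, edgeR adjusted p = 0.368). For Tek the difference was 0.38 ± 0.17 (unadjusted p = 0.0362, edgeR adjusted p = 0.499). The values were 0.26 ± 0.14 for Tie1, 0.068 ± 0.19 for Ptprb and 0.015 ± 0.13 for Angpt1. By edgeR 0 of the 16638 genes passed this test (0%), while 1546 had an unadjusted p under 0.05, and DESeq2 called 17 genes and limma-voom 0. The fall of Angpt2 and Tie1 with hypoxia in vehicle mice is thus not shown to differ from their smaller changes in ABT-263 mice. The lack of a call does not show that the drug's effect was the same in both conditions.

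Ratios of 2 members within a library do not depend on its scaling. They are ratios of mRNA, and proteins were not measured. They were tested with two-sided exact permutation tests over all 462 assignments of the libraries, of which the smallest possible p is 0.00216, with adjustment over 32 comparisons (8 ratios, 4 comparisons). The balance of ligands moved toward Angpt1 in hypoxia. The log2 ratio of Angpt2 to Angpt1 ran from −1.91 to −1.47 (median −1.65) in hypoxia vehicle libraries, against −0.92, −0.98, −1.15, −1.23 and −0.81 in normoxia vehicle libraries. The groups did not overlap, and the means differed by −0.65 (exact p = 0.00216, adjusted p = 0.0077). In ABT-263 mice the ratio was −1.87, −1.59, −1.5002, −1.51 and −1.82 in hypoxia and −1.40 to −1.31 (median −1.36) in normoxia, again apart, with a difference of −0.30 (the same exact and adjusted p).

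ABT-263 lowered the ligand ratio in normoxia. All 6 normoxia ABT-263 libraries were below all 5 normoxia vehicle libraries, with a difference of −0.34 (exact p = 0.00216, adjusted p = 0.0077). With treatment read from the tag in place of the title, this difference was −0.27 and missed the threshold (exact permutation test, adjusted p = 0.0866). In hypoxia the means were −1.66 ± 0.176 with ABT-263 and −1.66 ± 0.143 with vehicle (SD, n = 5 and 6), a difference of 0.0067 (exact adjusted p = 0.987). The difference between the 2 drug effects was 0.35. Permuting treatment within each oxygen condition, over 213444 assignments, gave a permutation p of 0.0229 for this difference and 0.0917 after adjustment over 8 ratios. Such a permutation is exact for no drug effect in either condition. It therefore cannot by itself show that the 2 drug effects differ. The difference passed without hypoxia vehicle replicate 6 or hypoxia ABT-263 replicate 1 or 5 (0.39 to 0.40, adjusted permutation p up to 0.046). This permutation test of a difference between drug effects was chosen after the data were seen.

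The receptors also shifted against each other. The log2 ratio of Tie1 to Tek ran from −0.27 to 0.094 (median −0.096) in hypoxia vehicle libraries, against −0.55, −0.46, −0.63, −0.63 and −0.49 in normoxia vehicle libraries. In ABT-263 mice it was −0.089, −0.32, −0.013, −0.30 and −0.27 in hypoxia and −0.64 to −0.44 (median −0.50) in normoxia. Hypoxia and normoxia did not overlap in either treatment, with differences of 0.45 in vehicle mice and 0.32 in ABT-263 mice (exact p = 0.00216 and adjusted p = 0.0077 for each). Tek thus fell relative to Tie1 as well as in level. ABT-263 changed this ratio by −0.091 in hypoxia (exact adjusted p = 0.401) and 0.034 in normoxia (exact adjusted p = 0.594).

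The mRNA of the phosphatase rose relative to that of its substrate receptor in vehicle mice. Both log2 fold changes with hypoxia were below 0, at −0.33 for Ptprb, short of the threshold, and −0.74 for Tek. Tek is the denominator here and in the ratio of Tie1 to Tek, so the ratios are not separate from its fall. The log2 ratio of Ptprb to Tek ran from 1.07 to 1.34 (median 1.19) in hypoxia vehicle libraries, against 0.77, 0.82, 0.85, 0.61 and 0.82 in normoxia vehicle libraries, a difference of 0.42 without overlap (exact p = 0.00216, adjusted p = 0.0077). With ABT-263 the ratio was 1.09, 0.95, 0.91, 0.92 and 1.09 in hypoxia and 0.70 to 0.9999 (median 0.91) in normoxia, overlapping, with a difference of 0.10 (exact adjusted p = 0.214). ABT-263 mice had a lower ratio than vehicle mice in hypoxia, by −0.20 (exact adjusted p = 0.0213), which missed the threshold without the 3 libraries of conflicting labels (−0.22, exact adjusted p = 0.0544), with treatment from the tag (−0.16, exact adjusted p = 0.115) and without hypoxia vehicle replicate 1, 2, 4 or 5 (exact adjusted p = 0.0508 for each). In normoxia the drug's difference was 0.12 (exact adjusted p = 0.159), or 0.16 without normoxia ABT-263 replicate 5 (exact adjusted p = 0.0231). The drug's effects in hypoxia and in normoxia differed by −0.32 (permutation p = 0.00108, adjusted p = 0.00862 over 8 ratios), or by −0.22 with treatment from the tag (permutation test, adjusted p = 0.133). As above, this permutation is exact only for no drug effect in either condition, so it cannot by itself show that the effects differ.

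**Figure D3:**
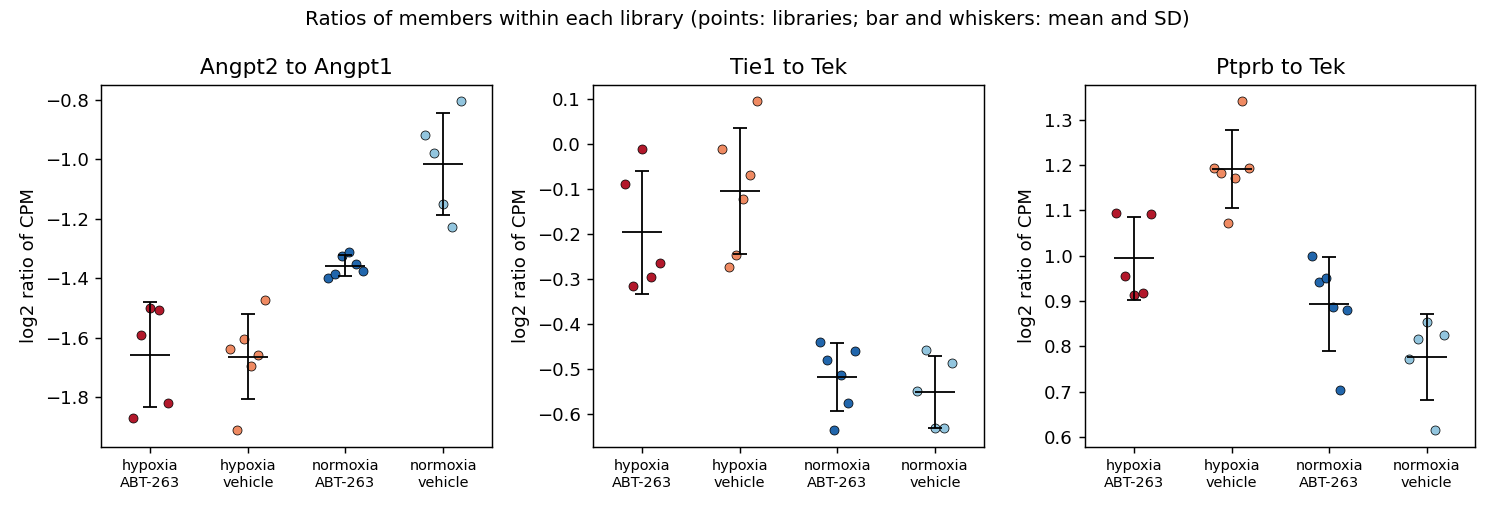
The vertical axes give the log2 ratio of CPM of Angpt2 to Angpt1, Tie1 to Tek and Ptprb to Tek within each library, by group, with points for libraries, a bar for the mean and whiskers for 1 SD. The ratio of Tie1 to Tek is higher in all hypoxia libraries than in all normoxia libraries of the same treatment, and the ratio of Ptprb to Tek is highest in hypoxia vehicle.

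The endothelial members were also set against a score of other endothelial genes. The score was the mean log2 CPM of 23 pan-endothelial genes, none of them a member, of which 8 were higher and 8 lower in hypoxia vehicle than in normoxia vehicle. Its mean was 7.44 ± 0.133 in hypoxia ABT-263, 7.36 ± 0.149 in hypoxia vehicle, 7.36 ± 0.146 in normoxia ABT-263 and 7.44 ± 0.101 in normoxia vehicle (SD). Relative to the score Tek was lower in hypoxia by −0.68 in vehicle mice and −0.44 in ABT-263 mice (exact adjusted p = 0.0077 and 0.0139). Ptprb was lower by −0.26 and −0.34 in the same mice (exact adjusted p = 0.0077 and 0.0277). The second missed the threshold without any one of 8 of the 11 libraries compared, the exceptions being normoxia ABT-263 replicate 5 and hypoxia ABT-263 replicates 4 and 5 (−0.40 to −0.26, exact adjusted p up to 0.0896). Tie1 was lower by −0.23 in vehicle mice (exact adjusted p = 0.0247), which was lost without hypoxia vehicle replicate 1, 2, 3 or 5 (exact adjusted p = 0.0508 for each). Its difference of −0.12 in ABT-263 mice did not pass (exact adjusted p = 0.194), but did without hypoxia ABT-263 replicate 4 (−0.17, exact adjusted p = 0.0476). Angpt2 differed by −0.23 and −0.023 (exact adjusted p = 0.0909 and 0.903), and the first passed without hypoxia vehicle replicate 6 (−0.29, exact adjusted p = 0.0212). Angpt1 was higher against the score by 0.41 and 0.28 (exact adjusted p = 0.0173 and 0.0077).

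The pan-endothelial genes moved both ways in vehicle mice, where 13.5% of all genes were higher and 12.8% lower. Emcn (1.06 ± 0.089), Cd34 (0.66 ± 0.081) and Egfl7 (0.41 ± 0.092) were among the 8 that were higher, and Eng (−1.26 ± 0.12), Ramp2 (−0.91 ± 0.10) and Kdr (−0.50 ± 0.10) among the 8 that were lower, all past the edgeR threshold. Among the defining genes of the list, Cdh5 (VE-cadherin) was lower in hypoxia in vehicle mice (−0.42 ± 0.15, edgeR adjusted p = 0.0462), whereas Pecam1 (−0.25 ± 0.11, adjusted p = 0.0921) and Cldn5 (−0.097 ± 0.097, adjusted p = 0.496) did not pass. Of 10 general capillary genes 2 were higher and 6 lower, with a median log2 fold change of −0.70, and of 13 aerocyte genes 1 was higher and 6 were lower (median −0.27). Of 11 arterial genes 6 were higher and 3 lower, and of 8 venous genes 2 were higher and 2 lower. Of 7 lymphatic endothelial genes 5 were higher and 1 was lower. The share of these endothelial subtypes in the fall of Tek and Tie1 was not tested. Outside the vessel wall, 7 of 11 leukocyte genes and 5 of 14 epithelial genes were lower and 7 of 7 erythroid genes higher. Leaving the haemoglobin genes out of the library totals changed none of the calls of the 5 members.

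The remaining pathway genes were grouped by role. Beside the counts below, 26.3% of all genes passed for hypoxia in vehicle mice, 13.5% higher and 12.8% lower. In ABT-263 mice 39.2% passed, 17.9% higher and 21.3% lower. No list was tested against these shares. Of the other Tie ligands and ligand-like proteins 5 were tested in vehicle mice, of which 0 were higher and 1 was lower in hypoxia, with a median of −0.12. That gene was Ecm1, an extracellular matrix protein (−0.36 ± 0.092, edgeR adjusted p = 0.00512). Angpt4, the third angiopoietin, was near the detection limit at 0.973 ± 0.260 CPM in hypoxia vehicle and 1.10 ± 0.482 CPM in normoxia vehicle (SD). Under ABT-263, 2 were higher and 1 lower. Svep1, a matrix protein reported as a ligand of Tie1, was higher in hypoxia there (0.45 ± 0.091, edgeR adjusted p = 0.00037), with 0.16 ± 0.091 in vehicle mice (adjusted p = 0.199) and an interaction of 0.29 ± 0.13 (adjusted p = 0.488). Angptl4, an inhibitor of lipoprotein lipase, was also higher (0.57 ± 0.21, edgeR adjusted p = 0.0343).

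Of 11 partners and proteases of the Tie receptors and VE-PTP, 2 were higher and 3 lower in vehicle mice, with a median of 0.018. In ABT-263 mice 3 were higher and 2 lower. The shares of all genes were 13.5% and 12.8% in vehicle mice, and 17.9% and 21.3% in ABT-263 mice. Lower were Kdr, the main receptor of VEGF-A (−0.50 ± 0.10, edgeR adjusted p = 0.000894), the integrin subunit Itgb3 (−0.42 ± 0.13, adjusted p = 0.0188) and Cdh5, the adhesion partner of VE-PTP. Higher were the integrin subunits Itgb1 (0.23 ± 0.079) and Itgav (0.21 ± 0.068). The proteases Adam17 (0.039 ± 0.064) and Mmp14 (0.058 ± 0.13), which can shed Tie receptors, did not pass.

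Of 27 adaptors and kinases downstream of Tie2, 3 were higher and 6 lower in vehicle mice, beside 13.5% and 12.8% of all genes. The median was −0.10. Those higher included Nos3, endothelial nitric oxide synthase (0.67 ± 0.11, edgeR adjusted p = 9.86e-05), and the adaptor Nck1 (0.44 ± 0.084, adjusted p = 0.000449). Lower were the kinase Pak1 (−0.54 ± 0.095, adjusted p = 0.000169), the docking protein Dok3 (−0.66 ± 0.14, adjusted p = 0.00137) and the formin Diaph1 (−0.38 ± 0.093, adjusted p = 0.00359). Nos3 stood at 24.7 ± 3.53 CPM in hypoxia ABT-263, 23.5 ± 1.43 in hypoxia vehicle, 14.4 ± 2.77 in normoxia ABT-263 and 14.8 ± 1.38 in normoxia vehicle (SD). Under ABT-263, 3 were higher, Nos3 and Nck1 among them, and 9 lower, beside 17.9% and 21.3% of all genes. Dok2, a docking protein that binds Tie2, had −0.29 ± 0.15 in vehicle mice (edgeR adjusted p = 0.14). Averaged over oxygen conditions ABT-263 lowered 1 of the 27, Dok3 (−0.42 ± 0.10, edgeR adjusted p = 0.0303), beside 1.31% of all genes. This call was lost with treatment read from the tag.

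FOXO factors and genes known as FOXO targets moved in both directions in vehicle mice. Higher were 3 of 20 and lower 7, beside 13.5% and 12.8% of all genes, with a median of −0.20. Foxo1 itself was lower (−0.64 ± 0.10, edgeR adjusted p = 6.95e-05), at 29.4 ± 3.11 CPM in hypoxia ABT-263, 29.6 ± 3.14 in hypoxia vehicle, 45.4 ± 8.23 in normoxia ABT-263 and 46.2 ± 4.28 in normoxia vehicle (SD). Foxo3 had −0.25 ± 0.13 and did not pass (adjusted p = 0.169). Among targets, Esm1, an endothelial proteoglycan, had a log2 fold change of −1.80 ± 0.22, Irs2, an adaptor of the insulin receptor, −0.61 ± 0.12, and the repressor Bcl6 −0.58 ± 0.13, all past the threshold. Sox17, an arterial transcription factor (1.13 ± 0.18), Ctgf, a matricellular protein (0.88 ± 0.16), and Klf4 (0.67 ± 0.16) were higher. Under ABT-263, 4 were higher and 9 lower, beside 17.9% and 21.3% of all genes, with Foxo1 at −0.62 ± 0.11 (edgeR adjusted p = 6.39e-05). Averaged over oxygen, ABT-263 lowered 1 of the 20, beside 1.31% of all genes. That gene was Pik3ip1, an inhibitor of PI3 kinase (−0.29 ± 0.067, edgeR adjusted p = 0.0205), a call also lost with treatment read from the tag.

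Of 14 transcription factors linked to Angpt2 or Tek, 1 was higher and 3 lower in vehicle mice, beside 13.5% and 12.8% of all genes. The median was −0.081. Epas1, which encodes HIF-2α, was lower (−1.01 ± 0.10, edgeR adjusted p = 1.06e-07), and Hif1a was higher (0.38 ± 0.087, adjusted p = 0.00207). Epas1 stood at 929 ± 56.0 CPM in hypoxia ABT-263, 941 ± 71.3 in hypoxia vehicle, 1974 ± 365 in normoxia ABT-263 and 1897 ± 168 in normoxia vehicle (SD). Gata3 (−0.51 ± 0.14, edgeR adjusted p = 0.00775) and Gata2 (−0.33 ± 0.11, adjusted p = 0.0333) were also lower. Under ABT-263, 2 were higher and 3 lower, beside 17.9% and 21.3% of all genes. The ETS factor Fli1 was at 0.45 ± 0.10 there (edgeR adjusted p = 0.0012) and at 0.073 ± 0.10 in vehicle mice (edgeR adjusted p = 0.646). Its interaction of 0.38 ± 0.15 did not pass (edgeR adjusted p = 0.422). Averaged over oxygen, ABT-263 lowered 1 of the 14, Gata3 (−0.47 ± 0.10, edgeR adjusted p = 0.0124), beside 1.31% of all genes. With treatment read from the tag Gata3 did not pass either.

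**Figure D4:**
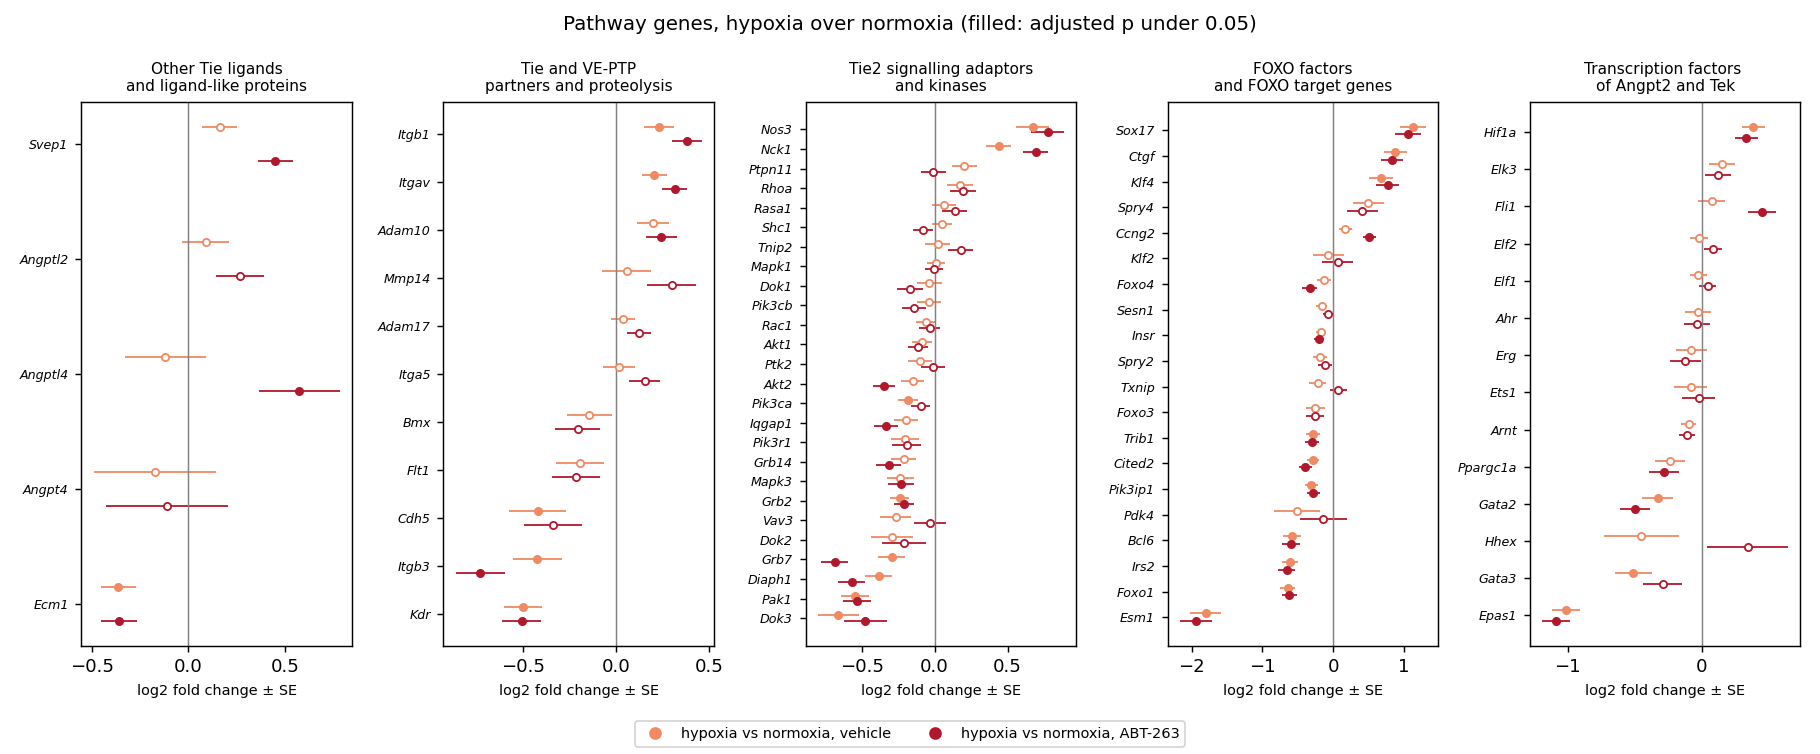
Log2 fold changes with SE (horizontal axes) of hypoxia over normoxia are drawn for tested genes of the 5 pathway groups (rows), in vehicle and in ABT-263 mice, with filled points where edgeR's adjusted p was under 0.05. Esm1 has the lowest value among the FOXO genes and Epas1 the lowest among the transcription factors, in both treatments.

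Within groups the 5 genes varied together from library to library. Normoxia ABT-263 replicate 3 had the highest level of its group for all 5 genes and also the highest pan-endothelial score (7.61). Normoxia vehicle replicate 1 was the lowest of its group for all 5 and for the score (7.31). As a description over 22 libraries, with group means removed, Pearson's r of log2 CPM was 0.92 for Ptprb and Tek, 0.86 for Tek and Tie1, and 0.86 for Ptprb and Tie1. For Angpt1 it was 0.73 with Tek, 0.74 with Ptprb and 0.59 with Tie1, although hypoxia moved Angpt1 and Tek in opposite directions. For Angpt2 it was 0.58 with Angpt1 and 0.49 to 0.51 with the receptors and the phosphatase. The libraries share their depth scaling and their content of vessels, and the part of either in these values was not tested.

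**Figure D5:**
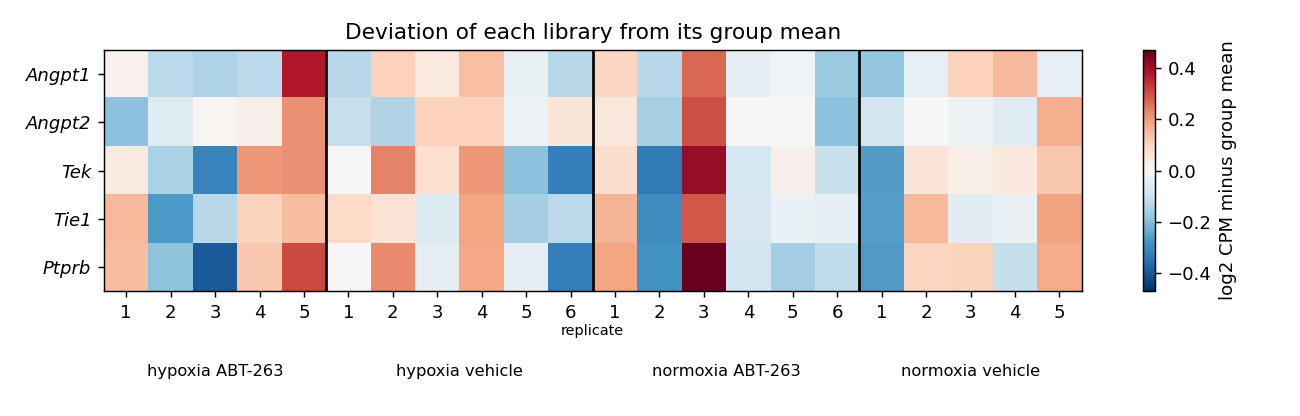
Rows are the 5 genes and columns the 22 libraries in 4 groups, and the colour gives the log2 CPM of a library minus its group mean, red above and blue below. Several columns hold a single colour, such as normoxia ABT-263 replicate 3 (red) and normoxia vehicle replicate 1 (blue).

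The genes most like each member were named by Pearson's r of log2 CPM over all 22 libraries, which span both oxygen conditions. For Tek they included the receptor Gpr182 and the kinase Jak1 (both 0.96), Tspan7 (0.95) and the endothelial receptor Cd93 (0.93). For Tie1 they were Cdh5 (0.90), Sipa1l2 (0.88), Nfatc1 and Etv3 (0.87), and Pecam1 (0.86). For Ptprb they were the G protein subunit Gnaq (0.92) and Adgrf5, Arrb1, Pik3r1 and Pcnx (0.91). For Angpt1 they were Abcb1a (0.92), Tmem65 (0.91), and Tmem47, Ptprg and Prex2 (0.90). Angpt2 had no gene as close, with Zfp667 and Irf1 (0.71) and Akr1c19, Ugcg and Ing3 (0.70) leading. With group means removed, Ctnnd1 (p120 catenin, 0.94), Dhx9 (0.94), Tspan7 (0.94), Ago1 (0.93) and Scaf11 (0.93) were closest to Tek. Tmem184b (0.93), Clip2 (0.92), Cdh5 (0.92), Phlpp1 (0.91) and Nfatc1 (0.90) were closest to Tie1. Gnaq (0.93), Tek (0.92) and Phf2, Cdc42bpa and Mef2a (0.91) were closest to Ptprb. Bmpr2 (0.86), Myo9a (0.86), Fbxo11 (0.85), Pitpnc1 (0.85) and Dach1 (0.84) were closest to Angpt1, and Ddx6 (0.83), S1pr1 (0.82), Zfp583 (0.82), Atg14 (0.79) and Rasgef1b (0.78) to Angpt2.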

How the data were processed

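Stranded mRNA libraries (TruSeq Stranded mRNA, read on a NextSeq 500) of 22 whole lungs were quantified, per the labels' protocols. The authors deposited expected counts per gene; the submitters' processing notes name Trimmomatic, STAR, RSEM and GRCm38, and versions are not given in the sources used here. Expected counts divide reads shared between genes, and 7.92% of the values were not whole; all were rounded. Positions and exon lengths are from GENCODE M21.

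Genes were kept with edgeR's filterByExpr (minimum count 10). Quasi-likelihood F tests (edgeR 4.0.16 in R 4.3.3, robust option, TMM factors) came from one fit of the 4 title groups, two-sided, with Benjamini-Hochberg adjustment over 16638 genes and 0.05 as the threshold. The SE of a log2 fold change was its absolute value over the root of F. At these depths the median SE was 0.11 for either hypoxia comparison and 0.16 for the interaction. Log2 ratios and scores used log2 CPM with a prior count of 2 and exact permutation tests. The fits and the permutation test of one group against another were checked on simulated data. The permutation of treatment within each oxygen condition was not.

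The 5 members and all gene lists were chosen with earlier results of these data known. Named genes are the members, the pathway genes that passed with the smallest p (up to 6 per list for hypoxia in vehicle mice, up to 2 for the drug), up to 3 markers per cell type, fixed marker genes and the 5 genes most like each member; part of them is printed, some genes are not reported here, and further list genes were named after their values were seen. Replicates are numbered in the order of the samples and are not paired. The lowest chi-square per gene between libraries of a group was 5.35, so none was a duplicate. Alternatives were DESeq2 1.42.0, limma-voom 3.58.1, RLE factors, library totals without TMM, other filters (none, or 1 CPM in 4 libraries), fitting only the groups compared, library totals without haemoglobin genes, the prior count 0.5, the label alternatives, normoxia ABT-263 replicates 2 and 6 left out together, and each library left out. Figures were drawn with matplotlib 3.10.9.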

Additional observations from a re-analysis of the deposited data

Results flagged for a closer look

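In 4 of 52 groups of values checked, one library stood apart from the rest of its group, and chance alone gives about 1 in 20. Hypoxia ABT-263 replicate 5 had 129 CPM of Angpt1, where the other 4 libraries had 89.9 to 101 CPM. Normoxia vehicle replicate 1 had 231 CPM of Tek, where the other 4 had 283 to 303 CPM. Without it the fall of Tek with hypoxia in vehicle mice was −0.80 on the log2 scale. The log2 ratio of Angpt2 to the pan-endothelial score was −2.80 in hypoxia ABT-263 replicate 1, where the other 4 had −2.43 to −2.31. That of Angpt1 to the score was −1.23 in normoxia ABT-263 replicate 6, where the other 5 had −1.07 to −1.01.

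The effect of ABT-263 on the log2 ratio of Ptprb to Tek differed between hypoxia and normoxia by −0.32. Permutation of treatment within each oxygen condition gave an adjusted p of 0.00862 over 8 ratios. That permutation is exact only for no drug effect in either condition and cannot by itself show that the effects differ. This permutation test was chosen after the data were seen, and with treatment read from the tag the difference was −0.22 and missed the threshold (adjusted permutation p = 0.133). The ratio was lower with ABT-263 than with vehicle in hypoxia (means 0.99 ± 0.091 and 1.19 ± 0.086) and higher in normoxia (0.89 ± 0.103 and 0.78 ± 0.095, SD).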

How the results depend on the processing

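The calls of Angpt1, Angpt2 and Tek for hypoxia in vehicle mice, and of Angpt1 for hypoxia in ABT-263 mice, kept their direction and their side of the threshold under every alternative fitted and with each library left out. So did the differences between hypoxia and normoxia in the ratios of Angpt2 to Angpt1 and of Tie1 to Tek in both treatments. In all, 2019 recomputed values kept direction and call, 33 lost and 15 gained a call, 59 changed sign and 50 counts moved by over 1.5 times; the cause was not tested, except that leaving out libraries leaves fewer splits for an exact test. No paired analysis was possible because the labels carry no replicate numbers. Values that changed sign were below 0.1 in size as first fitted.

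For hypoxia in vehicle mice, Ptprb passed with DESeq2 (−0.33), with the compared groups only (−0.33) and without normoxia ABT-263 replicates 2 and 6 (−0.34); in ABT-263 mice it passed without those 2 libraries (−0.36). Genes called for ABT-263 in normoxia numbered 327 with DESeq2, 59 without TMM, 17 with the compared groups only, 16 without the libraries of conflicting labels, 0 with treatment from the tag and 147 without replicates 2 and 6. In hypoxia they numbered 247 with DESeq2, 12 with limma-voom, 152 with the compared groups only, 77 without conflicting labels, 0 with the tag and 257 without replicates 2 and 6. Averaged over oxygen they numbered 773 with DESeq2, 239 with limma-voom, 271 without TMM, 257 without a filter and 0 with the tag. For the interaction they numbered 17 with DESeq2, 1 without conflicting labels and 8 without replicates 2 and 6.

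Without the conflicting labels, Tek for hypoxia in ABT-263 mice (−0.35), Ptprb to Tek for the drug in hypoxia (−0.22), and relative to the endothelial score Tie1 in vehicle mice (−0.23) and Ptprb in ABT-263 mice (−0.31) lost their calls for hypoxia. Changed in sign were the averaged drug effects on Tie1 (−0.0079) and Ptprb (−0.020), and Angpt2 to the score in ABT-263 mice (0.059). With treatment from the tag, calls were lost for Angpt2 to Angpt1 (−0.27) and Angpt2 to the score (−0.17) with the drug in normoxia, Ptprb to Tek with the drug in hypoxia (−0.16) and as an interaction (−0.22), and Ptprb to the score with hypoxia in ABT-263 mice (−0.33). Changed in sign were drug effects on Ptprb in hypoxia (−0.016) and averaged (−0.046), on Tie1 averaged (−0.037), on Tie1 to Tek (−0.00073) and Ptprb to the score (−0.0086) in normoxia, and the interaction of Angpt1 (−0.018). Without normoxia ABT-263 replicates 2 and 6, signs changed for Angpt2 with hypoxia in ABT-263 mice (−0.034), Ptprb with the drug in normoxia (0.078) and the interactions of Angpt1 (−0.049) and Ptprb (−0.021).

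With each library left out in turn, the log2 changes with hypoxia ran from −0.37 to −0.26 for Tie1 and −0.40 to −0.27 for Ptprb in vehicle mice, and from −0.42 to −0.26 for Tek and −0.087 to 0.031 for Tie1 in ABT-263 mice. Drug effects in normoxia ran from −0.0025 to 0.098 for Angpt1, −0.35 to −0.24 for Angpt2 and −0.13 to 0.029 for Ptprb, with 1 to 183 genes called. In hypoxia they ran from −0.020 to 0.12 for Angpt1 and −0.027 to 0.14 for Ptprb, with 3 to 228 genes called. Averaged, they ran from −0.015 to 0.054 for Tie1 and −0.040 to 0.065 for Ptprb, with 164 to 649 genes called. Interactions ran from −0.078 to 0.087 for Angpt1 and −0.0014 to 0.19 for Ptprb, with 0 to 2 genes called. Ratios of Angpt2 to Angpt1 ran from −0.043 to 0.060 for the drug in hypoxia and 0.30 to 0.40 for the interaction, and those of Ptprb to Tek from −0.22 to −0.17 for the drug in hypoxia and 0.077 to 0.16 in normoxia.

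Relative to the score, changes with hypoxia ran from −0.29 to −0.17 for Angpt2 and −0.26 to −0.21 for Tie1 in vehicle mice, and from −0.060 to 0.061 for Angpt2, −0.17 to −0.070 for Tie1 and −0.40 to −0.26 for Ptprb in ABT-263 mice. Drug effects in hypoxia ran from −0.060 to 0.030 for Angpt1, −0.054 to 0.090 for Angpt2 and −0.095 to 0.044 for Ptprb, and in normoxia from −0.0015 to 0.083 for Ptprb. The interaction of Ptprb ran from −0.14 to 0.0010.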
